A study of Mus musculus with 23 samples.

Results

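The untreated hearts of a mouse study of isoproterenol (ISO) and lipopolysaccharide (LPS) were compared: 4 libraries labelled ISO baseline against 4 labelled LPS baseline, chosen by that label alone, of 23 libraries in all. Every library came from the whole heart of a female, wild-type C57BL/6J mouse aged 10 weeks, C57BL/6J being an inbred laboratory strain. The other 15 libraries are hearts taken 1 or 7 days after 300 mg/kg of isoproterenol, a beta-adrenergic agonist, or 2.5 mg/kg of lipopolysaccharide, a bacterial cell wall component sensed by Toll-like receptor 4. Of these, only the day 7 hearts (4 of the ISO arm, 4 of the LPS arm) are used below, as other animals of the same arms.

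The labels give neither baseline any treatment, and no vehicle injection is described. They describe both baselines alike and do not say when each was taken, at what hour, or whether the arms were sequenced together. The comparison therefore asks how far hearts with the same description differ between the arms, and arm cannot be told apart from any shared circumstance of collection or library making.

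RNA was selected by its poly-A tail, copied with random hexamers and sequenced. Total estimated reads on genes ran from 20910394 to 28628313 in ISO baseline libraries and from 24957414 to 28446262 in LPS baseline libraries. Counts of every pair of libraries within an arm differed by more than counting error, with 4.22 to 13.3 as the chi-square over its degrees of freedom. Levels of one gene between libraries are mostly given in CPM, counts scaled to library size by TMM. Levels between genes, sums of genes and some single genes between arms are given in TPM, which is per length. The units can disagree between arms. For Tnni3, picked as an example, the mean was 4707 TPM in ISO baseline hearts and 5594 TPM in LPS baseline hearts. Its log2 difference by counts, ISO minus LPS, was -0.06. The tissue label was checked against markers. All 10 cardiomyocyte markers exceeded 1 TPM, their sum being 53289 to 54483 TPM in ISO baseline hearts and 52168 to 53189 TPM in LPS baseline hearts. Of 7 thymus markers, 5 were at 0 in all 8 libraries, as were the lung genes Sftpc, Sftpa1, Sftpd and Scgb1a1. Of 11 atrial markers, 8 averaged at least 1 TPM, led by Nppa at 130 TPM, but Sln averaged only 0.0134 TPM. The ratio of the ventricular marker Myl2 to the atrial marker Myl7 was 27605 ± 11096 in ISO baseline hearts. In LPS baseline hearts it was 49528 ± 33093 (SD, n = 4 each). How much atrial tissue the libraries hold was not tested. Xist averaged 5.73 ± 0.978 TPM (SD, n = 8) and Ddx3y, a Y-linked gene, was at 0.

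As background, heart muscle is packed with mitochondria and contractile filaments, and its transcriptome is dominated by the genes of both. Most heart cells also run a circadian clock, in which the activators Arntl (BMAL1), Clock and Npas2 switch on their own repressors (Per, Cry, Ciart, Bhlhe and the Nr1d receptors) and output factors such as Dbp. Clock genes therefore cycle over the day, with Arntl and Nfil3 peaking roughly opposite to Dbp and Nr1d1.

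The number of genes called between the arms depended on the fit. Of 15732 genes tested with edgeR's quasi-likelihood test (all 23 libraries in one fit, Benjamini-Hochberg adjusted p under 0.05), 191 differed (1.21%), of which 116 were higher (0.737%) and 75 lower (0.477%) in ISO baseline hearts. The median log2 difference of all genes, ISO minus LPS, was 0.0026. At least a 2-fold difference was seen in 24 of the higher and 11 of the lower genes. Libraries of the arms did not overlap for 1853 genes (11.8%), and 1701 genes (10.8%) had an unadjusted p under 0.05. For a single gene with no difference, 4 against 4 libraries are free of overlap with a probability of 0.02857. Genes are not independent, so neither share was tested against its chance level. With log2(TPM + 0.1) and limma, where the unit and the test both differ, the split of calls was 118 higher and 129 lower. That setting kept 134 of the 191 calls. With effective length offsets 227 genes were called, 131 higher and 96 lower, and 148 of the 191 were kept. Fitted alone, the 8 untreated libraries gave 701 calls of 14349 genes (4.89%), 366 higher (2.55%) and 335 lower (2.33%).

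Genes of the circadian clock were among the calls, with Dbp, Nr1d1 and Nr1d2 higher and Nfil3 lower in ISO baseline hearts. The lists of clock activators, repressors, nuclear receptors, PAR bZIP factors and kinases or ligases held 24 tested genes, of which 3 were higher and 1 lower in ISO baseline hearts, against 0.737% and 0.477% of all genes. Their median log2 difference was 0.25, and 13 of the 24 did not overlap between arms, against 11.8% of all genes. In the fit of the 8 untreated libraries alone, 8 of 23 were higher and 4 lower.

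Dbp, a PAR bZIP factor that carries the clock's rhythm to output genes, stood at 74.7, 72.4, 107 and 70.2 CPM in ISO baseline hearts, against 26.6, 36.9, 36.9 and 35.2 CPM in LPS baseline hearts. Every ISO baseline heart was above every LPS baseline heart, and ISO baseline replicate 3 was the highest of all. The log2 difference was 1.26 (SE 0.24), with an adjusted p of 0.0066 by edgeR's quasi-likelihood test. Dbp lies at chr7:45705088-45710203 (mm10, plus strand), and its span crosses Sphk2 on the other strand, which averaged 26.6 ± 1.27 CPM in ISO baseline hearts and 30.8 ± 1.07 CPM in LPS baseline hearts (SD, n = 4 each). The read strand setting is not given in the sources used here, so reads of crossing genes cannot be assigned with certainty.

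The nuclear receptors Nr1d1 and Nr1d2 (REV-ERB alpha and beta), which repress Arntl, were both higher in ISO baseline hearts. Nr1d1 (chr11:98767932-98775333, minus strand) stood at 172, 177, 183 and 184 CPM in ISO baseline hearts, against 89.3, 125, 139 and 110 CPM in LPS baseline hearts, a log2 difference of 0.63 (SE 0.11, adjusted p 0.0027 by edgeR). The arms did not overlap, and the LPS baseline hearts were the more spread. Thra, the thyroid hormone receptor gene that crosses the end of Nr1d1 on the other strand, averaged 105 ± 7.49 CPM in ISO baseline hearts and 104 ± 6.61 CPM in LPS baseline hearts (SD, n = 4 each). Nr1d2 stood at 70.7, 74.0, 84.0 and 70.1 CPM in ISO baseline hearts, against 53.2, 52.9, 49.6 and 54.5 CPM in LPS baseline hearts, with a log2 difference of 0.51 (SE 0.10, adjusted p 0.010). Again no library of one arm reached the other. Without ISO baseline replicate 3, or without LPS baseline replicate 3, the calls of Nr1d2 (adjusted p 0.052 and 0.051) and of Nfil3 were lost and the clock count was 2 of 24, Dbp and Nr1d1.

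Nfil3, a bZIP repressor that binds the same sites as Dbp, went the other way. It stood at 6.19, 7.42, 6.15 and 5.81 CPM in ISO baseline hearts, against 11.8, 9.48, 11.1 and 11.5 CPM in LPS baseline hearts (log2 difference -0.79, SE 0.18, adjusted p 0.023 by edgeR). All 4 ISO baseline hearts lay below all 4 LPS baseline hearts. The Nfil3 call was lost in 6 of 21 alternatives, without ISO baseline replicate 1, 3 or 4 or LPS baseline replicate 1, 3 or 4 (adjusted p up to 0.083), with a log2 difference of -0.86 to -0.69 over the 21.

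The activators Arntl and Npas2 had lower values in ISO baseline hearts but missed the threshold. Arntl stood at 8.27, 7.27, 4.41 and 7.97 CPM in ISO baseline hearts, against 15.2, 14.1, 14.2 and 11.2 CPM in LPS baseline hearts, a log2 difference of -0.97 (SE 0.29, adjusted p 0.12 by edgeR, and 0.0035 in the 8 untreated libraries alone). Npas2 averaged 3.35 ± 0.525 CPM in ISO baseline hearts and 6.00 ± 0.582 CPM in LPS baseline hearts (SD, n = 4 each), with an adjusted p of 0.17 over all libraries and 0.0020 in the 8 untreated libraries alone. Neither gene overlapped between arms. Clock itself, the usual partner of Arntl, stood at 41.9 to 50.8 CPM in ISO baseline hearts and 46.9 to 48.5 CPM in LPS baseline hearts, with a log2 difference of -0.03 (SE 0.09).

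The repressors were mixed. Ciart (1.26, SE 0.41), Per2 (0.68, SE 0.29), Per3 (0.63, SE 0.24), Bhlhe40 (0.48, SE 0.18) and Bhlhe41 (0.42, SE 0.12) had positive log2 differences, no overlap and adjusted p values of 0.11 to 0.37 by edgeR. Cry1, whose peak follows the other repressors in mouse tissues, had a log2 difference of -0.56 (SE 0.19, adjusted p 0.19), at 5.31 to 5.96 CPM in ISO baseline hearts and 7.27 to 8.94 CPM in LPS baseline hearts. In the fit of the 8 untreated libraries alone, these 6 passed the threshold (adjusted p 0.0028 to 0.034). Per1 overlapped between arms (log2 difference 0.17, SE 0.23). Of the kinases and ligases of the clock, Csnk1d, Csnk1e and Btrc passed in neither fit and overlapped between arms, as did Fbxl21 in the fit of all libraries, its counts being too low to be tested in the 8 alone. For Ciart, Per3, Tef, Hlf, Per2 and Dbp the highest library was ISO baseline replicate 3, which for Arntl was the lowest.

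**Figure D1:**
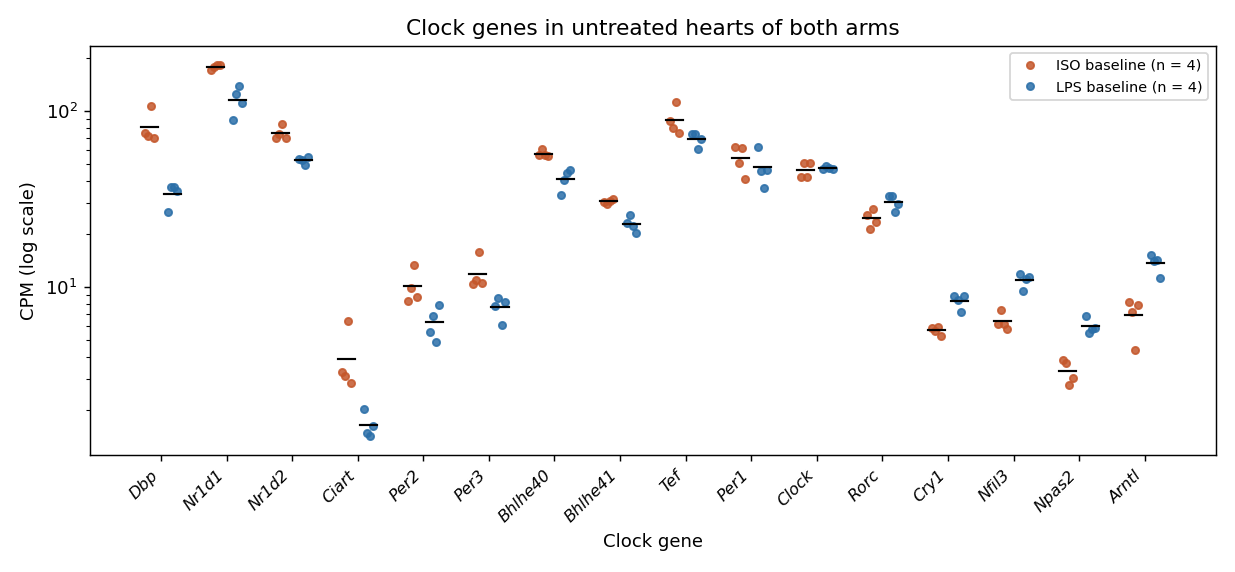
Level of clock genes (CPM, log axis) in each untreated heart, ISO baseline to the left of LPS baseline, 1 point per library with the mean as a line. Dbp and Nr1d1 points of ISO baseline hearts all sit above those of LPS baseline hearts, and Arntl and Nfil3 points all sit below.

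Windows around the transcription start of these genes were read from RefSeq (GRCm38.p6), from 250 bases before the start to 50 after it, for the 18 of 24 genes matched by symbol (26 windows). The following short motifs were searched on both strands: the E-box CACGTG bound by Arntl with its partners, the nuclear receptor half-site AGGTCA bound by Nr1d and Ror factors, and the D-box TTATGTAA or TTACGTAA bound by Dbp and Nfil3. Of all 32851 windows of this length, 7.15% held the E-box, 16.3% the half-site and 1.06% the D-box. Of the clock genes, 5 had a window with the E-box, 5 one with the half-site and 1 one with the D-box. These counts are per gene, and some genes have several windows, so they cannot be set against the shares per window. A match is a description of letters and not evidence of binding. The windows below are shown because they belong to genes free of overlap between arms: Ciart with the most E-boxes, Per3 with the only D-boxes, the called genes Nr1d2 and Nfil3 with a half-site each, and Dbp, with the largest called difference and none of these letters. Capitals mark the matches, TGACCT being the half-site read on the other strand. They are Ciart at chr3:95882179-95882478, Per3 at chr4:151044616-151044915, Nr1d2 at chr14:18239057-18239356 and Nfil3 at chr13:52980990-52981289, all on the minus strand, and Dbp at chr7:45704997-45705296 on the plus strand, each printed 5′ to 3′ along its gene.
Ciart: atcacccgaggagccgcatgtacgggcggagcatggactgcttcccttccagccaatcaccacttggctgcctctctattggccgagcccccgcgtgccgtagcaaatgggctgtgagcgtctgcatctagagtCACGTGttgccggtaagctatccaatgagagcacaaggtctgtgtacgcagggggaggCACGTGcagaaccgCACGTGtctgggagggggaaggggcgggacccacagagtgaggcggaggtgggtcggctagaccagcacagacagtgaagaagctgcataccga
Per3: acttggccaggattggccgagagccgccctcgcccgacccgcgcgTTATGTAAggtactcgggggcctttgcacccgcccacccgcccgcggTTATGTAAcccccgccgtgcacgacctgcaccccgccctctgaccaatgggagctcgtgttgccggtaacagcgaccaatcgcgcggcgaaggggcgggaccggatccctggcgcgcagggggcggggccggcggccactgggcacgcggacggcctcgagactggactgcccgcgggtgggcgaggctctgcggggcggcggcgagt
Nr1d2: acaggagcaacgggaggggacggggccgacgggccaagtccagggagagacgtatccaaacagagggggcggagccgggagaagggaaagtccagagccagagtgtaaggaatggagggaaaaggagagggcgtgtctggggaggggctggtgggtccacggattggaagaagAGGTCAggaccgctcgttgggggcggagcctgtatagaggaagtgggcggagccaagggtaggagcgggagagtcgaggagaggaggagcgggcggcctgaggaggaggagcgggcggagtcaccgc
Nfil3: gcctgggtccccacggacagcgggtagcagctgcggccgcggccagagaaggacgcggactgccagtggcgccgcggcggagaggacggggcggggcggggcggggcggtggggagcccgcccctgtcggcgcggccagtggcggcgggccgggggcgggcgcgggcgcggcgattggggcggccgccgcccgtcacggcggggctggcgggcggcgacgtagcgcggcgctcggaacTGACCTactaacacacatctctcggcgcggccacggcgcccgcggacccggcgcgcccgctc
Dbp: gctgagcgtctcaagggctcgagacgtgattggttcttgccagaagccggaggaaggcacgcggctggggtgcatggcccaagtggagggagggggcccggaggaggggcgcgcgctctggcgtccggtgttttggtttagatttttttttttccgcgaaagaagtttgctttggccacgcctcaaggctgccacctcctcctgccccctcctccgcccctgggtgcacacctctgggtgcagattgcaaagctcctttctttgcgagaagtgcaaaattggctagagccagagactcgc

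Ciart, with 3 E-boxes, and Dbp, with none in this window, both had a log2 arm difference of 1.26, called for Dbp alone. Nr1d2 and Nfil3 each had 1 half-site and differed in opposite directions, and Per3 had 2 D-boxes.

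At day 7 no clock gene was called between arms. Of the 24, 0 passed the threshold by edgeR, where 9.22% of all genes did (4.49% higher, 4.73% lower), and their median log2 difference was 0.04. Dbp averaged 105 ± 36.0 CPM in ISO day 7 hearts and 110 ± 28.9 CPM in LPS day 7 hearts, and Nfil3 averaged 6.24 ± 0.615 CPM in ISO day 7 hearts and 6.26 ± 1.45 CPM in LPS day 7 hearts (SD, n = 4 each). For Nr1d1 the day 7 log2 difference was 0.07 (SE 0.11) and for Nr1d2 it was 0.32 (SE 0.10, adjusted p 0.052). The change in the arm difference between baseline and day 7 was itself tested and did not pass for any of the 4 (adjusted p 0.090 for Dbp, 0.13 for Nr1d1, 0.77 for Nr1d2 and 0.26 for Nfil3), where 72 genes (0.458%) passed.

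Outside the clock, the gene with the highest log2 difference among calls with at least 5 CPM in the higher arm and no overlap was Fyb, an adaptor protein of T cells and platelets (chr15:6522853-6663313). It stood at 17.6, 18.3, 18 and 18.7 CPM in ISO baseline hearts, against 3.55, 7.80, 5.84 and 7.00 CPM in LPS baseline hearts (log2 difference 1.59, SE 0.20, adjusted p 0.00011 by edgeR). The arms were far apart and the ISO baseline hearts nearly equal. At day 7 Fyb again averaged 18.7 ± 2.87 CPM in ISO hearts and 7.70 ± 1.78 CPM in LPS hearts (SD, n = 4 each). Summed T and NK cell markers were 2.94 to 3.77 TPM in ISO baseline hearts and 2.73 to 3.37 TPM in LPS baseline hearts. Of these 14 markers, 1 was at or above 1 TPM. Summed platelet markers were 16.0 to 20.9 TPM in ISO baseline hearts and 13.4 to 22.9 TPM in LPS baseline hearts. The part of either cell type in the Fyb difference was not tested. The span of Fyb also holds Gm7666 on the same strand, at 41.2 ± 2.11 CPM in ISO baseline hearts and 41.7 ± 5.40 CPM in LPS baseline hearts. The gene length given for Fyb was 665 bases, and which of its exons carry reads is not resolved in gene totals.

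Tcap (telethonin, chr11:98383811-98384953), which caps titin at the Z-disc of the sarcomere, stood at 1291, 1201, 1351 and 1184 CPM in ISO baseline hearts, against 729, 675, 658 and 634 CPM in LPS baseline hearts. All ISO baseline hearts were well above all LPS baseline hearts, with a log2 difference of 0.90 (SE 0.11, adjusted p 3.7e-05 by edgeR). It was the only member to pass of 22 sarcomere genes, whose median log2 difference was 0.06, where 1.21% of all genes were called. At day 7 the Tcap difference was 0.29 (SE 0.11, adjusted p 0.092), and the change between the 2 times did not pass (adjusted p 0.082). Myh6, the main adult myosin heavy chain of mouse heart, had a log2 difference of 0.14 (SE 0.10, adjusted p 0.66).

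Cdkn1a (p21), a cell cycle inhibitor induced by p53 and by glucocorticoids, stood at 21.1, 16.3, 16.5 and 20.8 CPM in ISO baseline hearts, against 48.3, 31.8, 29.1 and 28.5 CPM in LPS baseline hearts. The arms did not overlap, with LPS baseline replicate 1 the highest, and the log2 difference was -0.88 (SE 0.19, adjusted p 0.017 by edgeR). The call was lost without LPS baseline replicate 1 (log2 difference -0.67, adjusted p 0.090) and without ISO baseline replicate 2 or 3 (adjusted p 0.071 each). Cdkn1a was the single call among 17 glucocorticoid-responsive genes, with a median of 0.00, where 1.21% of all genes were called, and its day 7 difference was -0.02 (SE 0.20). Tspan4, a tetraspanin, was the single call among 12 clock output genes, whose median log2 difference was 0.02, where 1.21% of all genes were called. Tspan4 averaged 18.3 ± 1.61 CPM in ISO baseline hearts and 11.1 ± 1.2 CPM in LPS baseline hearts (SD, n = 4 each). The log2 difference was 0.72 (SE 0.17, adjusted p 0.030 by edgeR), and the gene crosses Chid1 on the other strand. The Tspan4 call was lost in 8 of 21 alternatives (adjusted p up to 0.11): with limma-voom and without any single untreated library other than LPS baseline replicate 2.

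Mroh6 (chr15:75884137-75888770), a gene of the maestro heat-like repeat family, stood at 3.82, 2.38, 3.74 and 3.91 CPM in ISO baseline hearts, against 10.1, 11.4, 11.3 and 15.4 CPM in LPS baseline hearts. No gene with at least 5 CPM in the higher arm and no overlap was lower by more (log2 difference -1.78, SE 0.19, adjusted p 1.3e-05 by edgeR), and it was present at day 7 as well (-1.51, SE 0.19). Scand1, a SCAN-domain gene, averaged 29.2 ± 1.75 CPM in ISO baseline hearts and 46.9 ± 1.5 CPM in LPS baseline hearts (log2 difference -0.68, SE 0.06), and at day 7 the log2 difference was -0.46. Among calls of smaller size were Nkx2-5, a cardiac transcription factor, at 86.3 CPM in ISO baseline hearts and 105 CPM in LPS baseline hearts (-0.28), and Adra1d, an alpha-1 adrenergic receptor, at 4.43 CPM in ISO baseline hearts and 6.21 CPM in LPS baseline hearts (-0.49). Nkx2-5 and Adra1d were picked out of the calls after their values were seen.

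Ribosomal protein genes were frequent among the higher genes. Of 82 cytosolic ribosomal protein genes, 21 were higher and 0 lower in ISO baseline hearts, against 0.737% and 0.477% of all genes, with a median log2 difference of 0.17; with log2(TPM + 0.1) in limma, 2 of the 23 listed ribosomal protein genes passed in place of 6. Rps29, of the small subunit, stood at 150, 140, 142 and 143 CPM in ISO baseline hearts, against 85.1, 94.1, 89.6 and 83.7 CPM in LPS baseline hearts (log2 difference 0.71, SE 0.07, adjusted p 3.4e-06 by edgeR). Rplp1, of the large subunit stalk, averaged 351 ± 13.1 CPM in ISO baseline hearts and 219 ± 10.1 CPM in LPS baseline hearts (0.68, SE 0.08). Neither gene overlapped between arms. All 21 were also higher in ISO hearts at day 7, when 35 of the 82 were higher, against 4.49% of all genes; Rps29 then differed by 0.75 and Rplp1 by 0.70. Of 26 nuclear genes of oxidative phosphorylation, 2 were higher, Ndufa1 (0.39) and Ndufa2 (0.38) of complex I, against 0.737% of all genes, with a median of 0.08.

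The called genes were short at the median, with pseudogenes and copies included. The median gene length was 781 bases for the 116 higher and 1095 bases for the 75 lower genes, against 2418 bases for all tested genes. Among coding genes that were neither ribosomal nor copied elsewhere, the median log2 difference was 0.05 for those under 500 bases (55 genes), 0.07 for 500 to 750 bases (311 genes) and 0.04 for 750 to 1000 bases (547 genes), and -0.01 for those over 5000 bases (1751 genes). At day 7 the medians were 0.20, 0.08 and 0.05 in these short classes and 0.00 in the longest. Shares called higher at baseline fell with length, from 7.27% under 500 bases and 4.18% at 500 to 750 to 0.118% at 2000 to 3000. Shares called lower did not fall in this way, at 0%, 0.643% and 0.383%. Coding genes without a copy whose longest transcript had at least 60% GC (599 genes) had a median of -0.06 at baseline. At day 7 it was -0.07, and the other GC classes lay at -0.01 to 0.01 at baseline. The part of gene length in the ribosomal protein difference was not tested.

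**Figure D2:**
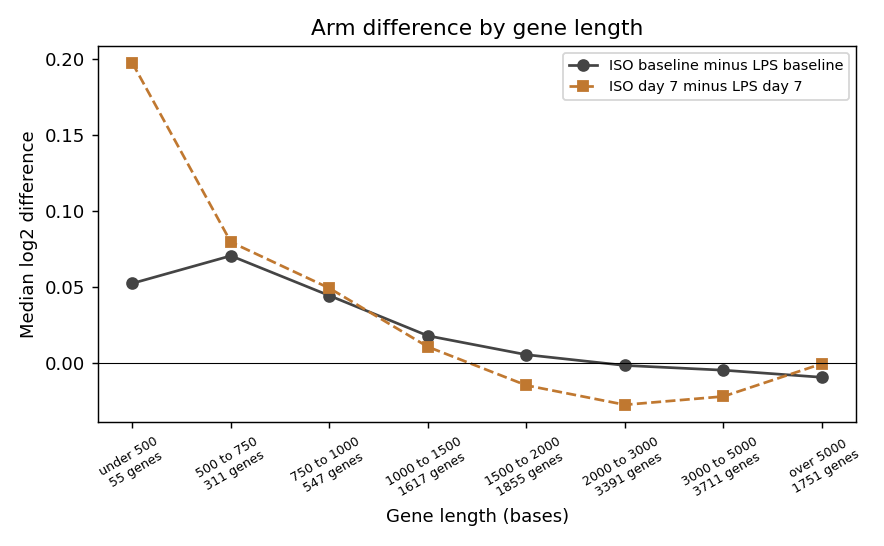
Median log2 difference, ISO minus LPS, of coding genes without near-identical copies and without ribosomal protein genes, by class of gene length in bases, at baseline and at day 7. At baseline it falls to -0.01 in the longest class, against 0.07 at 500 to 750 bases.

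Pseudogenes and near-identical copies were frequent among the calls. Of the 116 higher genes 34 (29.3%), and of the 75 lower genes 24 (32.0%), were pseudogenes, against 5.09% of all tested genes. A near-identical copy elsewhere (95% identity over 50% of the transcript) was found for 37.9% of the higher and 37.0% of the lower genes with a transcript sequence, against 6.85% of all. When the TPM of the 71 such called genes was added to that of their copies, the median absolute log2 ratio was 0.23, against 0.70 for the genes alone, and 49 of the 71 sums still did not overlap. Reads that fit several copies are shared out by the estimation, so the values of single copies are uncertain.

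The Gapdh family was higher in ISO baseline hearts. Gapdh, a glycolytic enzyme, and the pseudogenes linked to it by near-identical sequence held 54 tested genes, of which 17 were higher and 0 lower in ISO baseline hearts (median log2 difference 0.68), against 0.737% and 0.477% of all genes. Gapdh itself stood at 1185, 1012, 1062 and 980 CPM in ISO baseline hearts, against 877, 813, 721 and 762 CPM in LPS baseline hearts (0.42, SE 0.09, adjusted p 0.023 by edgeR). The Gapdh call was lost in 5 of 21 alternatives, without ISO baseline replicate 1 or 3 or LPS baseline replicate 2, 3 or 4 (adjusted p up to 0.12). No library of one arm reached the other, and the summed family of 93 genes averaged 2697 ± 124 TPM in ISO baseline hearts and 2144 ± 133 TPM in LPS baseline hearts (SD, n = 4 each). At day 7 Gapdh itself differed by 0.02 (SE 0.09), while 12 of the 54 were higher and 1 lower, against 4.49% and 4.73% of all genes. Gapdh was the single call at baseline among 18 genes of glucose use, whose median was 0.11, where 1.21% of all genes were called.

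Nuclear copies of mitochondrial genes differed in both directions. Of 11 tested, 4 were higher (Gm28661, Gm28437, Gm13340 and Gm13341) and 3 lower (Gm13339, Gm28439 and Gm28438) in ISO baseline hearts, against 0.737% and 0.477% of all genes. Gm28661, on chromosome 1, averaged 12931 ± 1199 CPM in ISO baseline hearts and 8280 ± 318 CPM in LPS baseline hearts (SD, n = 4 each). Together these copies took 4.72% ± 0.256 of reads in ISO baseline hearts and 3.71% ± 0.0571 in LPS baseline hearts. The two-sided exact permutation p was 0.02857, the smallest that 4 against 4 can give, and 0.157 adjusted over 33 library measures. The adjusted p could pass only if many measures reached that smallest value, so it does not decide whether the arms differ. Also at that p were the pseudogene share of reads and the summed TPM of ribosomal protein genes and cardiomyocyte, ventricular and skeletal muscle markers. With the nuclear copies added to the mitochondrially encoded genes, the share of reads was 31.5% ± 1.35 in ISO baseline hearts and 32.0% ± 0.719 in LPS baseline hearts (SD, n = 4 each, exact permutation p 0.543). No mitochondrially encoded gene of 13 passed.

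Day 7 hearts are other animals of the same arms, so an arm difference there can come from the agent, from the arm, or from both, which cannot be told apart. Of the 191 genes called at baseline, 187 had the same sign at day 7 and 127 were called in the same direction, among them 40 of 58 pseudogenes, all 21 ribosomal protein genes and 0 of 4 clock genes, where 9.22% of all genes were called at day 7. The median absolute log2 difference of the 4 clock genes was 0.71 at baseline and 0.07 at day 7, and that of the 21 ribosomal protein genes 0.41 and 0.40. Only 1 gene was called in opposite directions, Spn (leukosialin, a leukocyte surface protein), at 1.04 ± 0.161 CPM in ISO baseline hearts and 0.506 ± 0.0870 CPM in LPS baseline hearts, and at 0.881 ± 0.160 CPM in ISO day 7 hearts and 4.2 ± 0.54 CPM in LPS day 7 hearts (SD, n = 4 each).

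**Figure D3:**
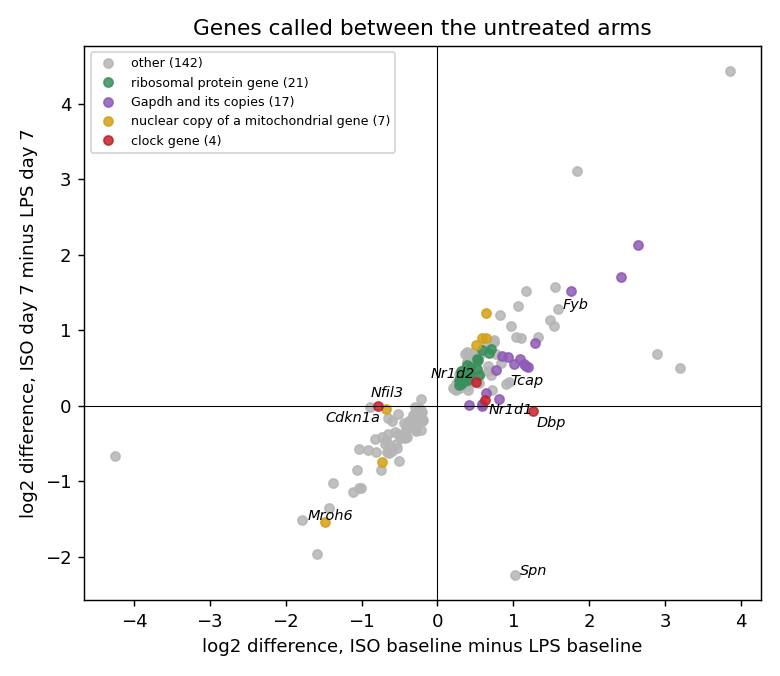
Log2 difference, ISO minus LPS, at baseline (x axis) and at day 7 (y axis) for the 191 genes called at baseline, 1 point per gene, with clock genes, ribosomal protein genes, Gapdh and its copies and nuclear copies of mitochondrial genes marked. Ribosomal protein genes lie near the diagonal, Dbp, Nr1d1 and Nfil3 lie near 0 on the day 7 axis and Nr1d2 at 0.32, and Spn lies at 1.03 and -2.24.

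No member of a list of adrenergic and LPS receptors and their early signalling genes was called at baseline. The list holds the alpha-1 receptors Adra1a and Adra1b but not Adra1d, which was named above among the calls. Of its 19 tested genes, 0 were called (median -0.01) and 2 were free of overlap, against 1.21% and 11.8% of all genes. Lists of this size are too short for a count of 0 to set them apart. Adrb1, the main beta-adrenergic receptor of heart muscle, averaged 28.2 ± 1.46 CPM in ISO baseline hearts and 28 ± 2.55 CPM in LPS baseline hearts (SD, n = 4 each; log2 difference 0.02, SE 0.19), and Tlr4, the LPS receptor, averaged 7.75 ± 0.692 CPM in ISO baseline hearts and 8.14 ± 1.56 CPM in LPS baseline hearts (-0.07, SE 0.14). No member was called of 16 calcium-handling genes (median 0.00), 20 ion channel genes (0.01), 22 genes of fasting and fat use (-0.05), 17 fetal and stress genes (-0.09) or 24 immediate early genes (-0.03), nor of 162 cell type markers, where 1.21% of all genes were called. In the fit of the 8 untreated libraries alone, where 4.89% of all genes passed, 1 fetal and stress gene was higher and 3 lower, 1 calcium-handling gene was higher, and 1 ion channel and 1 immediate early gene were lower in ISO baseline hearts. Of 132 cell type markers tested in that fit, 0 were higher and 5 lower, 2 of them among 5 erythroid markers. In whole-heart RNA, fewer cells of a type and less RNA per cell cannot be told apart. Erythroid markers, mostly globins, summed to 1129 to 2209 TPM in ISO baseline hearts and 1933 to 3052 TPM in LPS baseline hearts, and the exact permutation p of 0.086 was 0.31 adjusted over the 33 measures.

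The untreated heart transcriptome was steep. Over the 8 libraries, 11987 genes averaged at least 1 TPM, 5121 at least 10, 681 at least 100, 69 at least 1000 and 20 at least 10000. The 10 most abundant genes held 36.9% of all TPM, the top 50 held 65.1%, the top 100 held 70.1% and the top 1000 held 86.9%. Mitochondrially encoded genes alone took 42% ± 1.53 (SD, n = 8), and they or their nuclear copies filled 19 of the 25 highest ranks. With the copies added, the sum was 534089 ± 11048 TPM in ISO baseline hearts and 533722 ± 7185 TPM in LPS baseline hearts (SD, n = 4 each). The order was shared: 94 of the top 100 and 962 of the top 1000 genes were in the top list of both arms.

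**Figure D4:**
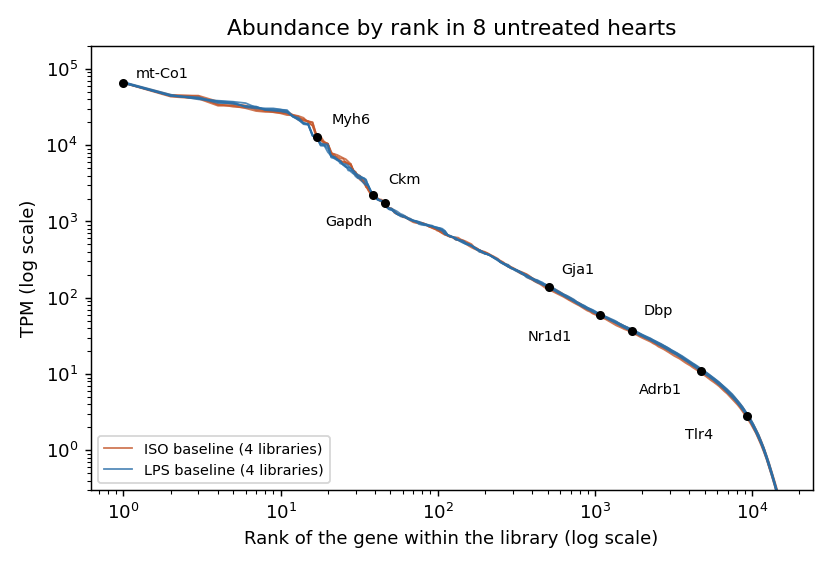
TPM (log axis) against the rank of the gene within its library (log axis), 1 line for each of the 4 ISO baseline and 4 LPS baseline hearts, with points for landmark genes at their mean over all 8. The lines lie nearly on top of each other, from mt-Co1 at 66065 TPM downwards.

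Cytochrome c oxidase subunit 1, mt-Co1, led at 65904 ± 613 TPM in ISO baseline hearts and 66226 ± 902 TPM in LPS baseline hearts (SD, n = 4 each). Next among mitochondrially encoded genes, counted without their nuclear copies, came mt-Cytb of complex III at 43825 ± 1811 TPM, mt-Nd1 of complex I at 35442 ± 1860 and mt-Atp6 of the ATP synthase at 35420 ± 2621 TPM (SD, n = 8 each). With nuclear copies added, mt-Co2 summed to 55770 ± 1824 TPM in ISO baseline hearts and 51824 ± 1686 TPM in LPS baseline hearts. For mt-Co3 the sums were 46041 ± 518 and 41442 ± 1297 TPM (SD, n = 4 each). The order therefore depends on how reads were shared out between genes and copies. The highest gene outside the mitochondrially encoded genes and their copies was Myh6 at rank 17, with 12793 ± 317 TPM. It was followed by the ventricular light chain Myl2 at 10390 ± 499, the oxygen store myoglobin (Mb) at 10204 ± 236, tropomyosin Tpm1 at 7284 ± 683, cardiac actin Actc1 at 6775 ± 559 and troponin T Tnnt2 at 6156 ± 371 TPM. In this order, Myl2 and Mb, Tpm1 and Actc1, and Actc1 and Tnnt2 lay within the sum of their SDs of each other, and the other neighbours did not.

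The 22 sarcomere genes took 6.38% ± 0.183 of TPM (SD, n = 8) and 26 nuclear oxidative phosphorylation genes 2.85% ± 0.0251. Adult isoforms prevailed. The ratio of Myh6 to Myh7, the slow myosin of the fetal heart in mouse, was 368 ± 46.2 in ISO baseline hearts and 316 ± 31.2 in LPS baseline hearts, and that of Actc1 to skeletal Acta1 was 83.1 ± 18.6 in ISO baseline hearts and 62.6 ± 18.3 in LPS baseline hearts (SD, n = 4 each). Titin (Ttn), the giant spring of the sarcomere, stood at 80.5 ± 7.04 TPM. Sarcolipin (Sln), an atrial calcium pump regulator, was at 0.0134 ± 0.0185 TPM (SD, n = 8), against 3721 ± 264 TPM for the pump Atp2a2 and 3579 ± 151 TPM for its ventricular regulator Pln. Fabp3, the fatty acid carrier of heart muscle, stood at 4257 ± 286 TPM, lipoprotein lipase (Lpl) at 1528 ± 145 and the glucose transporter Slc2a4 at 194 ± 5.07 TPM.

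Receptors of the agents were low beside the contractile genes. Adrb1 stood at 11 ± 1.06 TPM and Adrb3 at 0.0188 ± 0.0272 TPM (SD, n = 8 each), a gap far beyond the spread. Their G protein subunit Gnas stood at 388 ± 13.8 TPM. Of the LPS receptor, Tlr4 stood at 2.84 ± 0.475, its co-receptor Cd14 at 1.95 ± 0.358 and its partner Ly96 at 1.73 ± 0.328 TPM, of which Cd14 and Ly96 do not differ beyond their spread. Among channels, the background potassium channel Kcnk3 at 127 ± 7.14 TPM was far above the pacemaker channel Hcn4 at 3.13 ± 0.367 TPM. Nnt, a mitochondrial transhydrogenase whose gene carries a deletion in C57BL/6J mice, stood at 101 ± 9.13 TPM, and which of its exons carry reads is not resolved in gene totals.

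Most genes varied little among untreated hearts. For 9660 genes with a mean of at least 5 CPM, the SD of log2 CPM within an arm, pooled over both, had a median of 0.0871, and 60.5% lay under 0.1. Counting error alone gave a median SD of 0.0596. Only 25 genes reached 0.5 and 8 reached 1. These genes were ranked by their own spread, so their values are a description with no test.

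Near-identical copies were frequent among the most variable identifiers. Of the top 25, 12 had a near-identical copy (4.2% of all 9660 did), 10 crossed another gene's span (45.2% of all did), and 7 had neither (52.1% of all). All 8 with an SD of at least 1 fell below 0.5 when summed with those partners, some of which are much more abundant and so set the sum. Zc3h11a is counted under 2 identifiers with SDs of 1.03 and 0.44, and their sum had an SD of 0.116. The 2 highest, Gm45837 at 0 to 21.1 CPM and Gm49369 at 0 to 14.4 CPM, have spans that cross Arap1 and Pde2a, and Ctsd and Ifitm10.

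**Figure D5:**
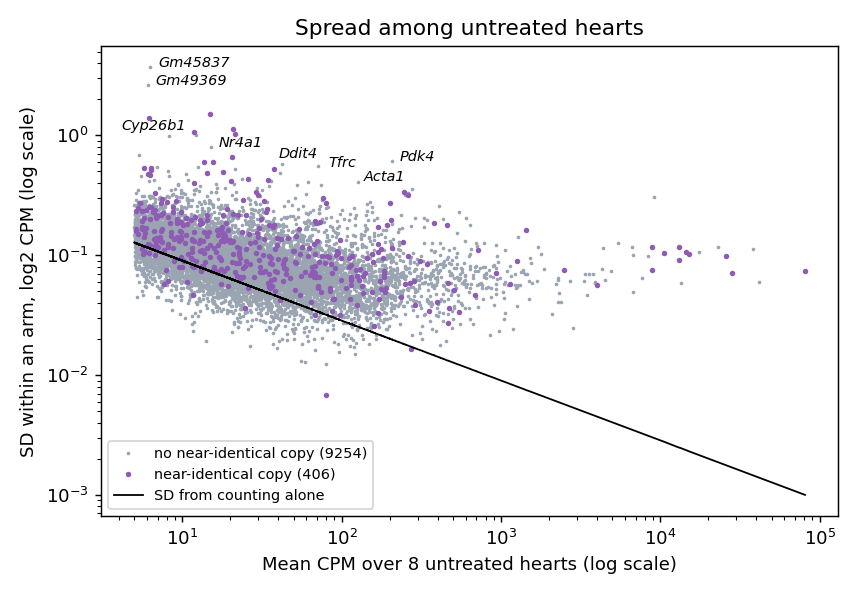
Within-arm SD of log2 CPM (log axis) against mean CPM (log axis) for 9660 genes, with the SD that counting error alone gives drawn as a line and selected genes named. Most genes sit near 0.1, and 8 sit at or above 1.

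Of the 7 genes with neither a copy nor a crossing gene, Cyp26b1 and Nr4a1 had the highest SD. Cyp26b1, which degrades retinoic acid, stood at 12.2, 2.47, 5.45 and 5.92 CPM in ISO baseline hearts and 5.50, 21.5, 9.12 and 4.07 CPM in LPS baseline hearts, an SD of 0.985. Nr4a1, an immediate early nuclear receptor, stood at 9.93, 10.6, 11.4 and 37.3 CPM in ISO baseline hearts and 9.99, 6.65, 14.6 and 20.1 CPM in LPS baseline hearts, an SD of 0.802. For Nr4a1 the highest heart was ISO baseline replicate 4, and for Cyp26b1 it was LPS baseline replicate 2, with arms overlapping in both.

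Pdk4, a kinase that restrains glucose oxidation and is induced by fasting, stood at 100, 149, 122 and 370 CPM in ISO baseline hearts and 218, 214, 290 and 193 CPM in LPS baseline hearts, an SD of 0.615. ISO baseline replicate 4 was again the highest, as it was for the uncoupling protein gene Ucp3 at 69.7 CPM, where the other 7 hearts lay at 23.5 to 44.3 CPM. Across 21 genes of fasting and fat use the median SD was 0.0798, so Pdk4 and Ucp3 stood apart from most of their list. Ddit4, a stress and glucocorticoid responsive inhibitor of mTORC1, was highest in LPS baseline replicate 1 at 88.6 CPM, against 18.6 to 44.1 CPM in the other hearts. Tfrc, the transferrin receptor, was lowest in ISO baseline replicate 3 at 28.2 CPM, where the others lay at 65.6 to 94.0 CPM.

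By list, the median SD was highest for 5 erythroid markers (0.331), 5 cell cycle genes (0.242), 15 glucocorticoid-responsive genes (0.235), 15 immediate early genes (0.212) and 24 collagen and matrix genes (0.204), among lists with at least 5 members. It was lowest for 26 nuclear oxidative phosphorylation genes (0.0625), 15 calcium-handling genes (0.0647), 23 ribosomal protein genes (0.0665) and 18 genes of glucose use (0.0684). Counting error, which is larger at low CPM, was not removed from these medians, and the lists differ in level. Of 25 listed cell cycle genes, only 5 reached the mean of 5 CPM. Of the sarcomere list, with a median of 0.0757, Acta1 stood out at 0.411, ranging over 79.9 to 150 CPM in ISO baseline hearts and 104 to 181 CPM in LPS baseline hearts. Among the steadiest genes without a copy were Sec24c of the COPII coat at 78.6 to 80.7 CPM and Vps35 of the retromer at 55.1 to 56.6 CPM over the 8 hearts, with SDs of 0.0125 and 0.0131 where counting alone gives 0.0319 and 0.0381. The 100 most variable genes of each arm shared 39, where 100 genes are 1.04% of those ranked.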

How the data were processed

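Poly-A RNA of 23 mouse hearts was analysed, of which the 8 untreated hearts, grouped by the labels, are described here. Each library has its own deposited file which, per the file headers, gives TPM, the estimated count of reads of each gene, and other columns holding its length and effective length in bases. The authors' TPM is already per length. The mm10 build and the tools DRAGEN, bcl2fastq, limma and edgeR are listed in the submitters' processing notes; the annotation release is not given in the sources used here, nor are the tool versions and the strand. Of 55487 identifiers, 55227 matched GENCODE M21 (GRCm38), and the rest held at most 0.0057% of reads. The 9.50% of values that were not whole were rounded before testing.

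Differences between arms were tested in R 4.3.3 with edgeR 4.0.16 (filterByExpr with a minimum count of 10, TMM scaling, glmQLFit and glmQLFTest, two-sided, Benjamini-Hochberg over 15732 genes, threshold 0.05) in one model of 6 group means, whose common biological coefficient of variation was 11%. The labels do not name the animals, and p-values measure the spread between libraries. Library measures were compared with exact permutation tests in scipy 1.17.1 under Python 3.11.15 with pandas 2.3.3. Near-identical copies were found with blastn 2.17.0 on the longest transcripts. Spread is the SD of log2 CPM (prior count 2) within arms. Alternatives used DESeq2 1.42.0 and limma 3.58.1. The edgeR steps were tested on simulated data for this comparison with 15732 genes, where 86.6%, 94.0% and 100% of genes changed 1.5-fold, 2-fold and 4-fold were recovered, with 8 false calls.

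Named genes are up to 12 called genes with the highest and 12 with the lowest log2 difference, no overlap and at least 5 CPM in the higher arm; all tested clock genes; up to 4 leading members of each described list; the 25 most abundant and the 25 most variable genes; others are said to be chosen after their values. Ucp3 was chosen that way too. The comparison, the lists and the members were chosen with earlier results of these data known. Sequences are from RefSeq (GRCm38.p6). A few members of the lists are not reported here.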

Additional observations from a re-analysis of the deposited data

Results flagged for a closer look

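Among 276 sets of 4 libraries examined, 23 (8.33%) held 1 library standing far from the other 3 of its arm by Dixon's criterion. Chance alone flags about 1 in 20 sets, but these sets include genes chosen for their spread and clock genes that move together, so the share cannot be read against it. Of the clock genes, ISO baseline replicate 3 stood above its arm for Dbp (107 CPM), Per3 (15.8 CPM) and Ciart (6.41 CPM), ISO baseline replicate 2 for Bhlhe40 (60.8 CPM), LPS baseline replicate 4 for Cry2 (24.8 CPM), and LPS baseline replicate 1 below its arm for Dbp (26.6 CPM). Of the other genes named by the arm difference, the highest ISO baseline library stood apart for Tspan4 (20.7 CPM) and Gm6768 (4.33 CPM) and the lowest for Mroh6 (2.38 CPM), while the highest LPS baseline library stood apart for Cdkn1a (48.3 CPM), Gm12286 (2.39 CPM) and Rps18 (98.2 CPM).

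Among the most variable genes, the highest ISO baseline library stood apart for Nr4a1 (37.3 CPM) and Arrdc2 (18.5 CPM) and the lowest for Neb (4.19 CPM) and Rpl7a-ps11 (3.59 CPM). The highest LPS baseline library stood apart for Ddit4 (88.6 CPM) and the lowest for Zc3h11a (1.5 CPM) and Gm8226 (14.8 CPM). Among the most abundant, the lowest ISO baseline library stood apart for Gm10925 (21469 TPM) and mt-Nd5 (19730 TPM) and the highest LPS baseline library for Mb (10237 TPM). The lowest number of genes with at least 1 read in an ISO baseline library was 19657, in the library with the fewest reads.

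For 2 genes called at baseline the arm difference at baseline departed from that at day 7 by edgeR's interaction test. Spn had a log2 arm difference at baseline minus that at day 7 of 3.27 (adjusted p 1.2e-06), and Med25, a Mediator subunit, one of -0.31 (adjusted p 0.034). Med25 averaged 85.6 ± 4.00 CPM in ISO baseline hearts and 99.4 ± 2.24 CPM in LPS baseline hearts, and 89.0 ± 3.92 CPM in ISO day 7 hearts and 83.4 ± 3.51 CPM in LPS day 7 hearts (SD, n = 4 each).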

How the results depend on the processing

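Of 1152 values of 55 named genes under alternatives, 1061 kept their direction and their side of the threshold, 68 lost the threshold, 23 gained it and 0 reversed. Where an alternative below changed a count without using fewer libraries or genes, the cause was not tested. The 191 calls (116 higher, 75 lower) became 701 (366 and 335) in the 8 untreated libraries alone, with 12 clock genes and 10 listed ribosomal protein genes, and 663 (350 and 313), 11 and 10 with the replicate block in those 8. Replicate numbers do not pair the arms (correlations of same-numbered deviations 0.0727, -0.0746, -0.214 and 0.227), and the replicate block over all libraries gave 201 calls. DESeq2 gave 316 (178 and 138), of which 201 were called the same way at day 7. Lower genes were 129 with log2(TPM + 0.1) and 134 with log2(TPM + 1), with 2 listed ribosomal protein genes in both and 2585 and 2825 calls at day 7 in place of 1451, which library totals moved to 2324. Without a count filter 7 clock genes passed. The share of the 10 most abundant genes was 27.2% without mitochondrially encoded genes, and genes with an SD of at least 1 were 34 from 1 CPM and 2 from 20 CPM.

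Leaving out 1 library gave 107 to 223 calls, 70 to 135 higher and 33 to 89 lower, 2 to 7 clock genes and 2 to 6 listed ribosomal protein genes, 671 to 2239 day 7 calls and 80 to 145 genes called alike at both times. Calls were 124 without ISO baseline replicate 1 and 107 without its replicate 2, and among LPS baseline libraries they were 124 without replicate 1, 119 without replicate 3 and 112 without replicate 4; clock genes were 7 without ISO day 7 replicate 1. Day 7 calls were 787, 2239 and 849 without ISO day 7 replicates 1, 3 and 4 and 671 without LPS day 7 replicate 3. The share of the 10 most abundant genes was 36.7% to 37.1% and genes with an SD of at least 1 numbered 6 to 9. ISO minus LPS differences in percent of reads were -2.01 to -1.16 for mitochondrially encoded genes, -0.0361 to -0.0203 for haemoglobin genes and 0.939 to 1.13 for nuclear copies, for which 3 against 4 libraries cannot pass. Genes under 5 CPM were not ranked by spread, since counting error dominates there.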

Other observations

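The listed long non-coding RNAs were modest in level in these poly-A selected libraries. Outside the list, the antisense RNA Gm15543 averaged 135 ± 35.2 TPM (SD, n = 8). Malat1, a nuclear RNA, stood at 71.1 ± 8.62 TPM in ISO baseline hearts and 63.3 ± 4.66 TPM in LPS baseline hearts (SD, n = 4 each). Neat1, the scaffold of paraspeckles, stood at 36.8 ± 2.09 TPM in ISO baseline hearts and 29.5 ± 1.98 TPM in LPS baseline hearts. Mhrt, which is antisense to Myh7, stood at 30.1 ± 1.51 TPM in ISO baseline hearts and 34.2 ± 1.42 TPM in LPS baseline hearts. None of the 11 tested genes of this list was called between arms, and their median log2 difference was 0.23, against 0.0026 for all genes.

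The ribosomal RNA gene CT010467.1, whose product largely lacks a poly-A tail, stood at 5851, 6299, 7064 and 7675 TPM in ISO baseline hearts, against 2933, 4506, 4130 and 6144 TPM in LPS baseline hearts. The arms overlapped, and the exact permutation p was 0.057, or 0.27 adjusted over 33 library measures.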
